A study of Mus musculus with 12 samples.

Results

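Liver of POR-null mice was compared with wild-type liver on the control diet, with no quercetin given. POR is cytochrome P450 oxidoreductase, and POR-null mice are labelled as lacking it. The comparison rests on 6 of the 12 arrays of the study, chosen by their sample titles: 3 arrays titled POR-null and 3 titled wild type. It was made over all 22626 probe sets other than the array's own controls, and is described here for genes outside the classic P450 and lipid lists. The mice of both groups were males of 6 to 8 weeks, labelled C57BL/6. They were adapted for 14 days to RM3 (E), a soya-free powdered diet, and stayed on it for the 24 h before sacrifice. Each array, an Affymetrix 430A chip read from total RNA of whole liver, carried the pooled RNA of 3 mice, so that n = 3 stands for 3 pools. The other 6 arrays came from mice of both genotypes that received quercetin, a plant flavonol, for 24 h at 6.2 g per kg of diet (given also as 7 mg per mouse). They share no array with the control-diet comparison and serve here as further arrays of the same genotype difference. The construct or Cre driver behind the disruption, and the cells that lack POR, are not stated in the labels or the design text. Por itself was not analysed here, and its level therefore gives no check of the genotype labels. Loss of POR and any difference in strain background between the groups cannot be told apart.

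POR is the flavoprotein of the endoplasmic reticulum that passes electrons from NADPH to the microsomal cytochromes P450 and to a few other enzymes, among them heme oxygenase and squalene monooxygenase. Without it the P450 enzymes of the liver are present but inactive, and drug clearance, bile acid synthesis and the hydroxylation of steroids and retinoids are known to suffer. Mice that lack POR in hepatocytes are known for an enlarged, fatty liver. The liver also burns and makes sugars and amino acids, detoxifies by conjugation to sulfate and glutathione, and divides these tasks between hepatocytes around the portal and the central vein.

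Values are log2 levels, on which a difference of 1 is a doubling. Levels are compared between arrays for the same gene only. A gene was called where its adjusted p was under 0.05 by limma over all 22626 probe sets. Each of the 12393 named genes is represented by its brightest probe set. Array medians lay between 5.93 and 5.99, and arrays of the same group correlated at 0.988 to 0.993 across probe sets. Arrays of different genotypes correlated at 0.981 to 0.991, so that the ranges overlapped. On the first principal component of the 6 arrays (41.6% of the variance) wild-type pools 2 and 3 lay at -20.8 and -22.5, and POR-null pools 1 and 2 at 26.8 and 14.3. Wild-type pool 1 (-3.15) and POR-null pool 3 (5.30) were the closest pair across the genotypes. Both libraries weigh on the count of calls, as given next.

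Outside the P450 and lipid lists 132 of 12149 genes were called, 92 higher and 40 lower in POR-null liver. Over all genes tested 114 were higher (0.920%) and 40 lower (0.323%), so that every called decrease fell outside those lists. Over all probe sets 262 were called (1.16%) with adjusted p down to 3.81e-05, while 3577 reached an unadjusted p under 0.05. The median increase among the 92 genes was 0.73 and the largest 2.08, and 13 exceeded 1. Decreases were smaller, with a median of -0.58 and a largest of 1.06 log2 units. In all 132 genes the 3 POR-null arrays lay apart from the 3 wild-type arrays, where such separation was found for 8.25% of all genes upward and 9.55% downward. These genes were called on the same arrays, so their separation goes with the call and adds no support to it. Over all genes the median difference was -0.02, and the 95% confidence interval of a difference had a median half-width of 0.24 over the probe sets.

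**Figure D1:**
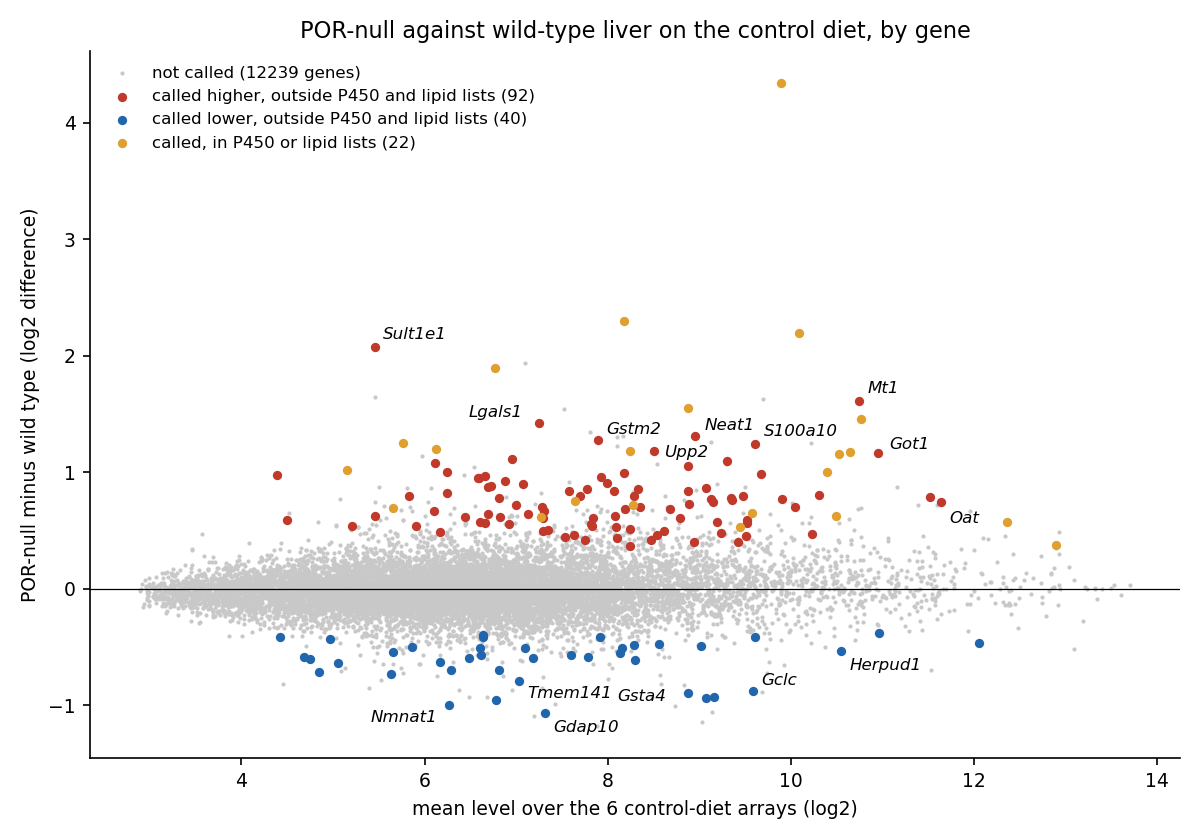
Log2 difference between POR-null and wild-type liver on the control diet (vertical axis) against the mean log2 level over the 6 control-diet arrays (horizontal axis), 1 point per gene. Called genes outside the P450 and lipid lists are red (92 higher) and blue (40 lower), the 22 called genes inside those lists are orange, and the rest are grey; among called genes outside the lists increases reach 2.08 and decreases 1.06.

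The calls depended on single arrays. Without wild-type pool 2 the calls outside the lists came to 9 higher and 4 lower, without wild-type pool 3 to 20 and 10, without POR-null pool 1 to 11 and 4, and without POR-null pool 2 to 20 and 6. Without wild-type pool 1 they came to 225 and 140, and without POR-null pool 3 to 205 and 105. In all 6 of these fits 7 genes that rose (Oat, S100a10, Got1, Bhmt2, Inhbe, Tkfc and Spns2) and 1 that fell (Gsta4) passed. When the spread was estimated from the 6 control-diet arrays alone, in place of all 12, 7 of the 92 and 1 of the 40 genes passed. Of those, S100a10, Oat, Tkfc, Spns2 and Gsta4 also passed in all 6 fits. For each group of genes below, the largest adjusted p over the fits with an array left out is given as a range. Over all genes 0.920% were called higher and 0.323% lower, and 5706 of 12393 lay above 0. Counts of called members and of members above 0 in the lists below stand against these shares.

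**Figure D2:**
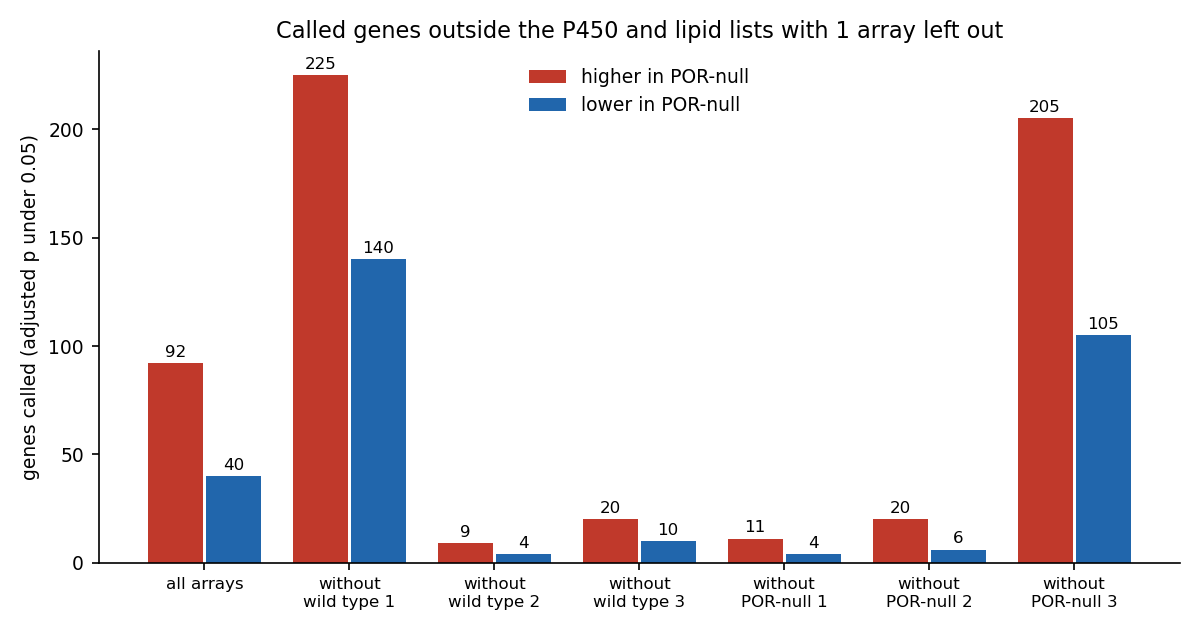
Number of genes outside the P450 and lipid lists called by limma (vertical axis, adjusted p under 0.05), with all arrays and with each of the 6 control-diet arrays left out (horizontal axis), for genes higher (red) and lower (blue) in POR-null liver. The counts are 92 and 40 with all arrays, 9 and 4 without wild-type pool 2, and 225 and 140 without wild-type pool 1.

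Among genes that handle nitrogen, Oat and Rhbg rose in POR-null liver. Oat, the ornithine aminotransferase that links ornithine to glutamate, stood at 11.264, 11.247 and 11.285 in wild-type pools 1 to 3 and at 12.138, 12.002 and 11.899 in POR-null pools 1 to 3. The arrays of each genotype lay close together and the groups were far apart, with a difference of 0.75 ± 0.08 (SE; 1.68-fold, adjusted p = 0.000733). Rhbg, an ammonium transporter of the hepatocyte membrane, stood at 7.10, 7.12 and 7.24 in wild type against 8.36, 8.03 and 7.58 in POR-null (difference 0.84 ± 0.18, adjusted p = 0.0403). POR-null pool 3 was the lowest of its group and still above every wild-type pool. They were the 2 called genes of 15 measured in the urea cycle and nitrogen list, which had 11 members above 0 and a median of 0.19.

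Among enzymes of amino acid breakdown, 2 of 43 measured rose and 0 fell, with a list median of 0.12. Got1, the cytosolic aspartate aminotransferase, stood at 9.91, 10.51 and 10.71 in wild type and at 11.56, 11.85 and 11.21 in POR-null (1.16 ± 0.18, 2.24-fold, adjusted p = 0.0106). Gpt2, the mitochondrial alanine aminotransferase, stood at 8.87, 8.72 and 8.68 against 10.34, 10.06 and 9.15 (1.10 ± 0.23, adjusted p = 0.0403). In both genes POR-null pool 3 was the lowest of its group, without overlap with wild type. In the methionine cycle list 1 of 18 genes rose, and 16 lay above 0 (median 0.16). It was Bhmt2, which remethylates homocysteine with S-methylmethionine as donor, at 8.60, 8.23 and 8.53 in wild type and 9.53, 9.30 and 9.06 in POR-null (0.84 ± 0.12, adjusted p = 0.00826). Mat1a, which makes S-adenosylmethionine, differed by 0.44 (adjusted p = 0.0574). Oat, Got1 and Bhmt2 passed with any of the 6 arrays left out. Rhbg and Gpt2 did not pass without wild-type pool 2 or 3 or POR-null pool 1 or 2, at adjusted p of up to 0.196 and 0.192. The mean over the 3 probe sets of Gpt2 differed by 0.84 (adjusted p = 0.0713).

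Genes known from the hepatocytes around the central vein, many of them Wnt targets, held the most calls of any list. Of 19 measured 5 rose and 0 fell, where 0.920% of all genes were called higher and 0.323% lower. The 5 were Oat and Rhbg (above, also in the nitrogen list), Lhpp, Slc13a3 (also among the channels and carriers) and Cldn2. The lists were chosen with earlier results of these data known, so this rank was not tested. Lhpp, a phosphatase of phosphohistidine and phospholysine, stood at 7.14, 7.82 and 7.38 in wild type and 8.59, 8.50 and 8.14 in POR-null, without overlap (0.96 ± 0.15, 1.95-fold, adjusted p = 0.0121). Slc13a3, a carrier of succinate and other dicarboxylates, stood at 5.47, 5.40 and 5.44 against 6.52, 6.03 and 6.15 (0.80 ± 0.12, adjusted p = 0.0112). Of its 3 other probe sets 1 was called too (1.21, adjusted p = 0.0172) and the others differed by 0.06 and -0.16, so that the mean over its 4 probe sets differed by 0.48 (adjusted p = 0.037). Cldn2, a tight junction claudin, stood at 8.94, 8.44 and 8.19 against 9.44, 9.27 and 9.07 (0.73 ± 0.16, adjusted p = 0.0469). Of the 19 members 14 lay above 0, against 5706 of 12393 over all genes, and the list's median was 0.06. Relative to all 6 arrays its medians were -0.03, -0.11 and -0.05 in the wild-type pools and 0.05, 0.14 and 0.11 in the POR-null pools, without overlap. As means over probe sets Cldn2 differed by 0.62 (adjusted p = 0.0614). Lhpp lost its call without POR-null pool 1 or 2 (adjusted p = 0.0645 and 0.0509) and Slc13a3 without wild-type pool 2 (adjusted p = 0.0558). Cldn2 lost it without wild-type pool 2 or 3 or POR-null pool 1 or 2 (up to 0.23), and Rhbg as given above.

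**Figure D3:**
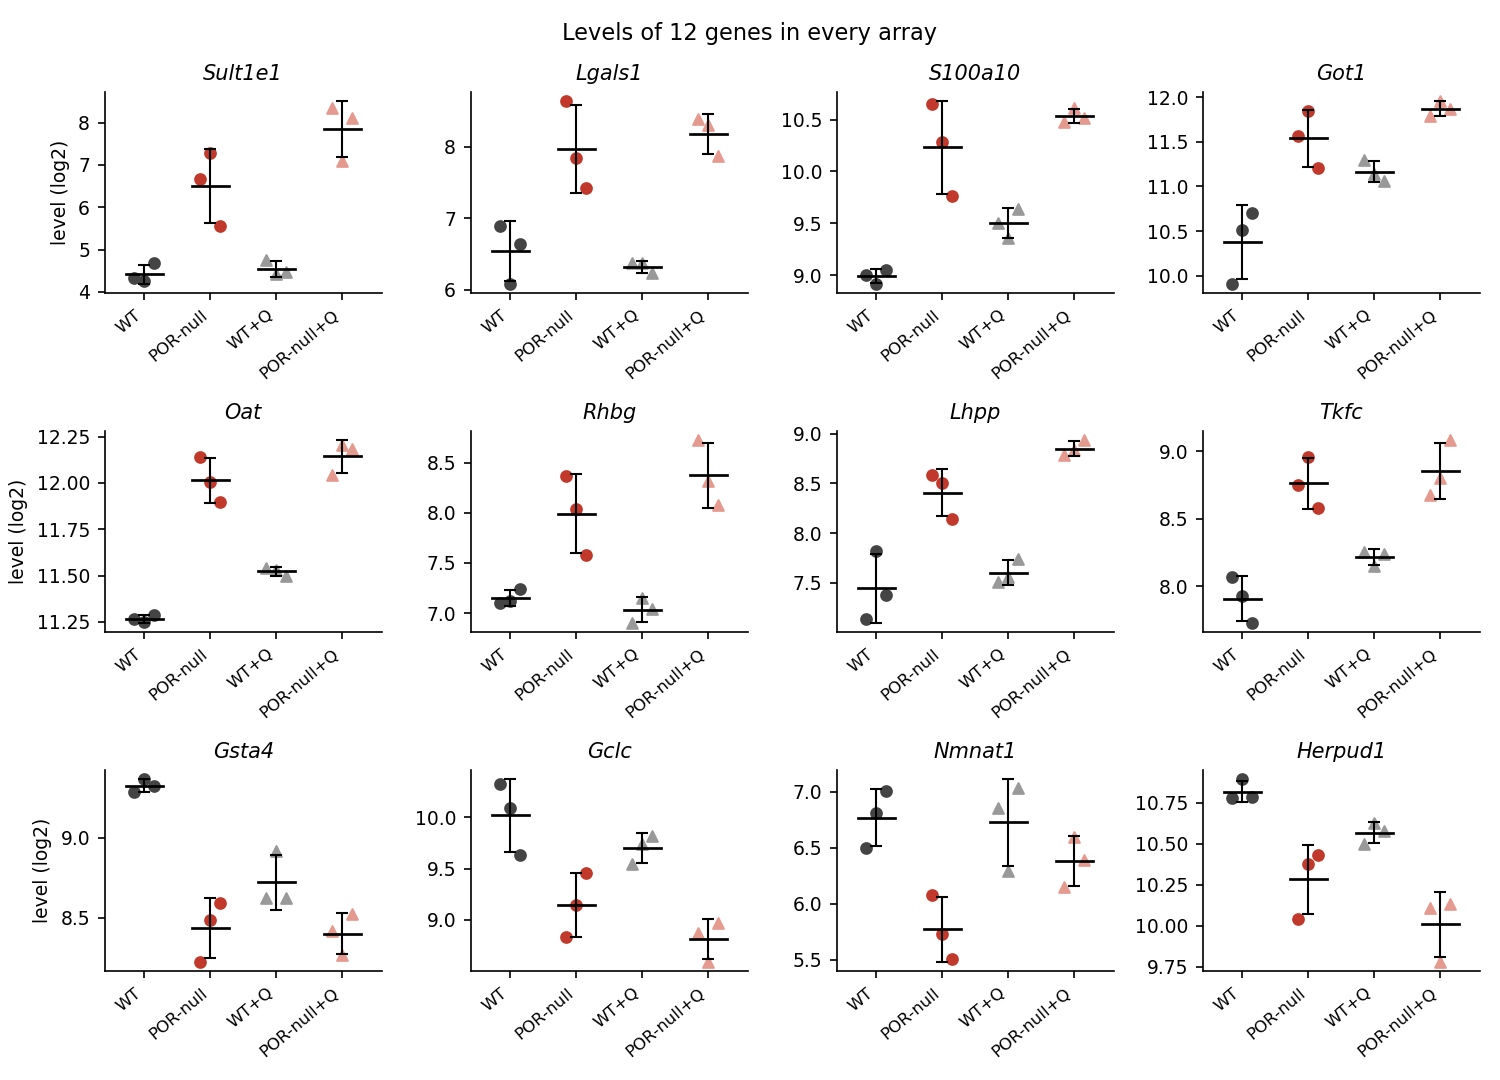
Log2 levels (vertical axes, each with its own range) of 12 genes in every array, for wild type (WT) and POR-null on the control diet (circles) and on the quercetin diet (Q, triangles). Points are arrays 1 to 3 from left to right, bars the mean and whiskers the SD (n = 3); in each of the 12 genes the 3 POR-null and 3 wild-type circles do not overlap, as with Oat at 11.25 to 11.29 against 11.90 to 12.14.

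In sugar metabolism 4 of 31 measured genes rose and 0 fell, where 0.920% of all genes were called higher and 0.323% lower. The list's median was 0.03. Tkfc, which phosphorylates dihydroxyacetone and glyceraldehyde from fructose, stood at 8.07, 7.92 and 7.73 in wild type and 8.75, 8.96 and 8.58 in POR-null (0.86 ± 0.12, 1.81-fold, adjusted p = 0.00861). Slc2a2, the glucose transporter of the hepatocyte, stood at 9.82, 9.74 and 9.54 against 10.63, 10.38 and 10.21 (0.71 ± 0.12, adjusted p = 0.0172). In neither gene did the groups overlap. Pygl, the liver glycogen phosphorylase, stood at 9.60, 8.97 and 8.68 against 10.12, 9.77 and 9.73 (0.80 ± 0.18, adjusted p = 0.048). Pdk2, a kinase that switches off pyruvate dehydrogenase, stood at 8.03, 7.83 and 8.15 against 8.80, 8.83 and 8.49 (0.71 ± 0.11, adjusted p = 0.0121). For Pygl the gap between the groups was narrow, since wild-type pool 1 nearly reached POR-null pool 3. Treh, the trehalose-splitting enzyme, also rose, by 0.95 ± 0.16 (adjusted p = 0.0139), and passed in the fit of the 6 control-diet arrays alone (adjusted p = 0.0295). Tkfc passed with any of the 6 arrays left out. The other 4 genes lost their calls without wild-type pool 2 or POR-null pool 1, Slc2a2, Pygl and Pdk2 also without POR-null pool 2, and Slc2a2 and Pygl also without wild-type pool 3, at a largest adjusted p between 0.0645 and 0.231.

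Mitochondrial genes moved singly. Of 59 measured genes of oxidative phosphorylation only Atp5pb, a stalk subunit of ATP synthase, was called (0.47 ± 0.10, adjusted p = 0.045), and the list's median was 0.03. Among 27 mitochondrial carriers 0 were called. Chosen after their values were seen, 3 enzymes of the citrate cycle or its cytosolic branch rose: Idh3a, the catalytic subunit of NAD-dependent isocitrate dehydrogenase (0.84 ± 0.15), Dlst of the oxoglutarate dehydrogenase complex (0.48 ± 0.11) and Aco1, the cytosolic aconitase (0.76 ± 0.17). The mitochondrial fusion protein Mfn2 (0.61 ± 0.12), the import subunit Timm17a (0.44 ± 0.09) and the mitochondrial RNA-binding protein Lrpprc (0.42 ± 0.09) rose as well, and so did the autophagy genes Atg5 (0.67 ± 0.12) and Map1lc3b (0.57 ± 0.10). Means over all probe sets of the gene were smaller for Atp5pb (0.31), Idh3a (0.41), Dlst (0.17), Aco1 (0.51), Mfn2 (0.32), Atg5 (0.31) and Map1lc3b (0.29), at adjusted p from 0.068 to 0.43. Etfbkmt, a methyltransferase that acts on the electron transfer flavoprotein, fell, from 9.39, 9.80 and 9.45 to 8.10, 8.90 and 8.83 (-0.94 ± 0.19, adjusted p = 0.0285). All of these genes lost their calls without wild-type pool 2 or 3 or POR-null pool 1, all but Etfbkmt also without POR-null pool 2, and Lrpprc also without POR-null pool 3, at a largest adjusted p between 0.0888 and 0.236.

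In sulfation, 3 of 17 measured genes rose and 1 fell. Sult1e1, the estrogen sulfotransferase, was near the low end of the scale in wild type, at 4.32, 4.26 and 4.68, and stood at 6.66, 7.28 and 5.55 in POR-null. It showed the largest increase outside the P450 and lipid lists (2.08 ± 0.35, 4.22-fold, adjusted p = 0.0161), and POR-null pool 3 was the lowest of its group. Papss2, which makes the sulfate donor PAPS, stood at 8.96, 8.97 and 8.93 against 10.14, 9.65 and 9.41 (0.78 ± 0.15, adjusted p = 0.0254), and the mean over its 4 probe sets differed by 0.49 (adjusted p = 0.097). Suox, the sulfite oxidase, rose by 0.61 ± 0.13 (adjusted p = 0.0403). Sult2b1, a sulfotransferase of cholesterol and other hydroxysteroids, fell from 6.92, 7.24 and 7.61 to 6.09, 6.56 and 6.27 (-0.95 ± 0.17, adjusted p = 0.0196), and the groups did not overlap. Chosen after their values were seen, Gal3st1, which sulfates galactosylceramide, rose by 0.49 ± 0.11, and Sulf2, an extracellular sulfatase of heparan sulfate, by 0.65 ± 0.14. All 6 of these genes were lost without wild-type pool 2 or POR-null pool 1. All but Sult1e1 were also lost without wild-type pool 3, all but Sult2b1 without POR-null pool 2, and Gal3st1 and Sulf2 without wild-type pool 1, at a largest adjusted p between 0.0843 and 0.231.

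Sult1e1 was also the only called gene of 16 measured in the list of female-biased liver genes (9 above 0, median 0.05). In the male-biased list 0 of 16 genes were called, with 7 above 0 and a median of -0.04. Gstp1, of which male mouse liver makes more, stood at 13.40, 13.42 and 13.22 in wild type and 12.58, 12.84 and 13.08 in POR-null (-0.52, adjusted p = 0.111). With quercetin 1 of these 16 genes lay above 0, with a median of -0.35. There 2 were called lower, among them Gstp1 (-0.93, adjusted p = 0.00624). Of 22 genes of growth hormone and STAT5 signalling 0 were called on the control diet. Socs2, a feedback inhibitor of the growth hormone receptor, stood at 7.76, 8.09 and 7.90 against 7.29, 6.75 and 6.74 (-0.99, adjusted p = 0.147). Among 14 steroid dehydrogenases and reductases 0 were called. The nearest was Hsd11b1, which regenerates active glucocorticoid, at 11.91, 11.95 and 11.78 against 10.80, 11.12 and 11.62 (-0.70, adjusted p = 0.053). With quercetin 2 of the 14 were called lower, among them Hsd11b1 (-0.93, adjusted p = 0.00905).

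Glutathione genes moved in both directions. Gsta4, a glutathione transferase for hydroxynonenal and other products of lipid peroxidation, stood at 9.29, 9.37 and 9.32 in wild type and 8.22, 8.48 and 8.59 in POR-null. The wild-type arrays were nearly equal and every POR-null array was lower (-0.89 ± 0.11, adjusted p = 0.00257). Gclc, the catalytic subunit of the enzyme that starts glutathione synthesis, stood at 10.33, 10.10 and 9.63 against 8.83, 9.14 and 9.46 (-0.88 ± 0.18, adjusted p = 0.0311). Here wild-type pool 3 and POR-null pool 3 were close, and the groups did not overlap. Gstm2, a mu-class transferase, went the other way, from 7.28, 7.17 and 7.31 to 9.32, 8.26 and 8.00 (1.28 ± 0.25, adjusted p = 0.028). Of 21 glutathione transferases these 2, Gsta4 and Gstm2, were called, and of 26 genes of glutathione synthesis and the NRF2 response only Gclc. Their medians were 0.13 and 0.02. Fth1, the ferritin heavy chain, differed by 0.30 (adjusted p = 0.0721). Maff and Mafg, small Maf proteins that pair with NRF2 and related factors on DNA, both fell. Maff stood at 6.44, 6.95 and 6.52 against 5.99, 5.90 and 5.94 (-0.69 ± 0.12, adjusted p = 0.0157) and Mafg at 8.62, 8.58 and 8.60 against 7.75, 7.92 and 8.30 (-0.61 ± 0.12, adjusted p = 0.028). As means over their probe sets Gclc differed by -0.91 (adjusted p = 0.0535) and Mafg by -0.46 (adjusted p = 0.0528). Gsta4 passed with any array left out. Gclc was lost without wild-type pool 2 or POR-null pool 1 or 2, Gstm2 without wild-type pool 2 or 3 or POR-null pool 2, Maff without POR-null pool 1 or 2, and Mafg without any 1 of these 4 pools, at a largest adjusted p between 0.0623 and 0.165.

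Both called genes of the NAD list fell, of 17 measured, and 6 of the 17 lay above 0. Nmnat1, the nuclear enzyme of the last step of NAD synthesis, stood at 6.50, 6.81 and 7.00 in wild type and 6.08, 5.73 and 5.51 in POR-null (-0.996 ± 0.196, adjusted p = 0.028). Nampt, the rate-limiting enzyme of NAD salvage from nicotinamide, stood at 8.27, 8.52 and 8.44 against 7.60, 8.02 and 7.96 (-0.55 ± 0.12, adjusted p = 0.048). In both genes the groups did not overlap. Among other conjugating enzymes Nat8f1, of the N-acetyltransferase 8 family, fell by 0.93 on the log2 scale (SE 0.21, adjusted p = 0.0487), and 0 of 10 glucuronosyltransferases and related genes were called. Gdap10, a transcript that neighbours Nampt in gene order, showed the largest decrease among called genes, from 7.89, 8.33 and 7.34 to 6.47, 7.14 and 6.75 (-1.06 ± 0.23, adjusted p = 0.0463). Each of these 4 genes was lost without wild-type pool 2 and without POR-null pool 2; Nmnat1, Nampt and Nat8f1 also without wild-type pool 3, Nampt, Nat8f1 and Gdap10 also without POR-null pool 1, and Gdap10 also without wild-type pool 1 or POR-null pool 3. The largest adjusted p lay between 0.122 and 0.233. As means over their probe sets Nampt differed by -0.37 (adjusted p = 0.129) and Nmnat1 by -0.85 (adjusted p = 0.0712).

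Of 35 immediate early genes and feedback regulators of MAP kinases 2 fell, Maff (above) and Ier2, with 8 members above 0 and a median of -0.17. Ier2, induced within minutes by growth factors, stood at 7.51, 7.33 and 7.60 against 6.70, 6.84 and 7.14 (-0.59 ± 0.12, adjusted p = 0.0357). A pair of stress markers of another kind, both on chromosome 8 and close in gene order, moved in opposite directions. Mt1, the zinc- and copper-binding metallothionein, stood at 10.68, 8.89 and 10.26 in wild type and 11.84, 11.49 and 11.33 in POR-null. The POR-null arrays were close together and above all wild-type arrays, of which pool 2 was lowest (1.61 ± 0.35, 3.06-fold, adjusted p = 0.0434). A dimmer probe set of Mt1 differed by 0.01, and the mean over both by 0.81 (adjusted p = 0.14). Herpud1, a membrane protein of the endoplasmic reticulum that serves the degradation of misfolded proteins, fell from 10.78, 10.89 and 10.78 to 10.04, 10.38 and 10.43 (-0.54 ± 0.11, adjusted p = 0.0406). It was the called gene among 41 of the endoplasmic reticulum stress list (median 0.01), and Mt1 among 23 of metal handling (median -0.02). Without wild-type pool 2 or 3 or POR-null pool 1 or 2 the calls of Ier2, Mt1 and Herpud1 were lost, at a largest adjusted p between 0.187 and 0.201.

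The upstream windows of Mt1 and Herpud1 are shown because these neighbours moved apart and each class of gene has a textbook element. Both run 5′ to 3′ on the + strand, end at the base before the annotated start, and come from RefSeq on GRCm38.p6, at chr8:94178839-94179088 for Mt1 and chr8:94386179-94386428 for Herpud1. Capitals mark the match.
Mt1: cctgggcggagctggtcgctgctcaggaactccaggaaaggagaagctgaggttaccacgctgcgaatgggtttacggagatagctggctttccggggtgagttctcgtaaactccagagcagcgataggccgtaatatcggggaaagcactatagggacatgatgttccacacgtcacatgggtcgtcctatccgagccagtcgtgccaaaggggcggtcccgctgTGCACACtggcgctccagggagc
Herpud1: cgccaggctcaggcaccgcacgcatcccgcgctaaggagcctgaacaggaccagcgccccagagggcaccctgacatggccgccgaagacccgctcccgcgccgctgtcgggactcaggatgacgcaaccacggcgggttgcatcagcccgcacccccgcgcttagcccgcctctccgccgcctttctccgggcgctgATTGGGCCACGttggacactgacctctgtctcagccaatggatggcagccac
The Mt1 window held 1 match, on either strand, of the metal response core (TGCACNC or TGCGCNC), which begins at base -23. Of 32851 mouse windows of the same length 21.4% hold it. This share and those below leave out the windows of 1 chromosome. With the 50 bases after the start included it had 3 matches, so most of its matches lay past the printed window. Of such longer windows 25.7% hold at least 1 match. The share that holds 3 or more was not counted, so these shares do not rank the Mt1 window. In the Herpud1 window the first ER stress element (CCAAT, 9 bases of any kind, then CCACG, on either strand) had 0 matches, where 0.113% of windows hold it. The printed window ends inside a near match of this element, so the search was extended, after the data were seen, over the 50 bases past the start. It again had 0 matches, where 0.119% of windows hold it. The second element (ATTGG, any base, then CCACG), added to the search after the data were seen, had 1 match, which begins at base -52 and which 0.0304% of windows hold. A match describes letters in the window and is no measure of binding.

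Several genes of the cell surface, matrix and secreted signals rose, though few members of their lists were called. Of 42 matrix and TGF-beta genes, arrays did not overlap upward for 12 and downward for 1. Of 25 annexins, galectins and S100 proteins, they did not overlap upward for 7 and downward for 2. Over all genes these shares were 8.25% upward and 9.55% downward. S100a10, a calcium-binding partner of annexin A2, stood at 9.00, 8.92 and 9.05 in wild type and 10.65, 10.28 and 9.76 in POR-null (1.24 ± 0.16, 2.36-fold, adjusted p = 0.00299). Its second probe set was called as well (1.21, adjusted p = 0.0311). Lgals1, galectin-1, stood at 6.90, 6.09 and 6.64 against 8.63, 7.83 and 7.42 (1.42 ± 0.25, adjusted p = 0.0176), and its second probe set differed by 2.10 (adjusted p = 0.00164). With Lgals3bp, a galectin ligand (0.62 ± 0.13, adjusted p = 0.0431), they were the 3 called of 25 annexins, galectins and S100 proteins, and the groups did not overlap in any of the 3. Inhbe, the inhibin beta E chain secreted by hepatocytes, stood at 5.86, 6.09 and 6.41 against 7.27, 6.84 and 7.11 (0.95 ± 0.14, 1.94-fold, adjusted p = 0.00822). Of 42 matrix and TGF-beta genes only the matricellular protein Sparc was called (0.57 ± 0.12, adjusted p = 0.045). Chosen after their values were seen, the receptor Tgfbr2 (0.90 ± 0.18), the adhesion molecule Icam1 (0.62 ± 0.13), the heparan sulfate proteoglycan Sdc1 (0.74 ± 0.13) and the prion protein Prnp (0.85 ± 0.14) rose. As means over their probe sets Tgfbr2 differed by 0.44 (adjusted p = 0.064) and Sparc by 0.66 (adjusted p = 0.0838). S100a10 and Inhbe passed with any array left out. The other 7 genes were lost without wild-type pool 2, all but Prnp also without wild-type pool 3 and POR-null pools 1 and 2, and Sparc also without POR-null pool 3, at a largest adjusted p between 0.0632 and 0.218.

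Markers of other cell types were read beside these genes, and few of them were called. Mpeg1, a pore-forming protein of macrophages, was the called gene of 19 macrophage and Kupffer cell markers, at 7.79, 7.41 and 7.40 in wild type and 8.90, 8.20 and 8.23 in POR-null (0.91 ± 0.20, adjusted p = 0.048). The mean log2 level over the 19 markers was 6.71 to 7.06 in wild type and 7.08 to 7.36 in POR-null. Of the 19 markers 14 lay above 0, against 5706 of 12393 over all genes, and their median difference was 0.35. Arrays did not overlap upward for 6 of these markers and downward for 0. Clec4f, a defining marker of Kupffer cells, differed by 0.48 (adjusted p = 0.307) and the pan-macrophage marker Adgre1 by 0.15 (adjusted p = 0.677). Of 16 markers of stellate cells and fibroblasts 0 were called, with mean levels of 6.11 to 6.21 and 6.23 to 6.37. Of 7 adipocyte markers 2 rose, Fabp4 and Cidec, a fatty acid carrier and a lipid droplet protein that also belong to the lipid lists. The other probe sets of Fabp4 differed by -0.12, -0.0007 and 1.03, at adjusted p of 0.132 or more. The 7 had 6 members above 0, a median difference of 0.44, and mean levels of 6.00 to 6.12 in wild type and 6.29 to 6.83 in POR-null. The hormone Adipoq, which defines adipocytes, differed by -0.12 (adjusted p = 0.695). Among the lysosomal enzymes Ctsl, cathepsin L, was the 1 called of 35, from 11.239, 10.996 and 11.146 to 12.01, 12.22 and 11.52 (0.79 ± 0.15, adjusted p = 0.0266). Of 8 neutrophil, 20 lymphocyte, 17 endothelial, 11 bile duct and 8 erythroid markers 0 were called, and likewise of 7 hepatocyte markers (12.66 to 12.76 in wild type and 12.57 to 12.76 in POR-null). On these arrays every probe set has a value above 0, so absence of a marker cannot be read. The part of other cell types in the results on surface and matrix genes was not tested, and in bulk liver more cells of a type and more RNA per cell cannot be told apart. The calls of Mpeg1 and Ctsl were lost without wild-type pool 2 or 3 or POR-null pool 1 or 2 (adjusted p of up to 0.23 and 0.135). Fabp4 lost its call without any array but POR-null pool 3 (up to 0.181), and Cidec without wild-type pool 3 (0.0504).

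Exocrine pancreas markers varied between pools, with overlapping mean levels of 6.44 to 7.92 in wild type and 6.30 to 7.73 in POR-null. Wild-type pool 2 and POR-null pool 3 were the highest of their groups. Of the 16 markers 6 lay above 0 and 0 were called. On the quercetin diet 15 of the 16 lay above 0, with a median difference of 0.96, and 0 were called.

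Channels and carriers rose at 4 of 29 measured, and 0 fell. Aqp8, a water channel of the canalicular membrane, stood at 6.32, 6.06 and 6.16 against 7.77, 6.89 and 6.78 (0.97 ± 0.21, adjusted p = 0.0403). Aqp9, the glycerol channel of the sinusoidal side, stood at 10.14, 9.75 and 9.81 against 11.02, 10.67 and 10.44 (0.81 ± 0.18, adjusted p = 0.0474). Slc47a1, which exports organic cations into bile and urine, rose by 0.77 ± 0.15 (adjusted p = 0.0256), and Slc13a3 as given above. In each gene the POR-null arrays were all above the wild-type arrays. The mean over both probe sets of Aqp9 differed by 0.67 (adjusted p = 0.0508). Car2, carbonic anhydrase 2, was the called gene of 16 carbonic anhydrases (0.61 ± 0.11, adjusted p = 0.0224). Spns2, an exporter of sphingosine 1-phosphate chosen after its values were seen, stood at 6.14, 6.23 and 6.47 against 7.29, 7.19 and 7.00 (0.88 ± 0.13, adjusted p = 0.00861) and passed with any array left out. Aqp8, Aqp9 and Slc47a1 were lost without wild-type pool 2 or 3 or POR-null pool 1 or 2, and Car2 without wild-type pool 2 or 3 or POR-null pool 1, at a largest adjusted p between 0.13 and 0.231.

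The remaining genes among the 20 largest increases have varied roles. Neat1, the noncoding RNA that builds paraspeckles, stood at 8.17, 7.85 and 8.87 against 10.07, 9.50 and 9.25 (1.31 ± 0.27, adjusted p = 0.0372), and was the called one of 11 long noncoding RNAs. Upp2, a liver uridine phosphorylase, stood at 7.75, 7.83 and 8.14 against 9.18, 9.37 and 8.74 (1.19 ± 0.25, adjusted p = 0.0406). Gpcpd1, a glycerophosphocholine phosphodiesterase, stood at 9.18, 8.96 and 9.42 against 10.05, 10.19 and 10.28 (0.99 ± 0.15, 1.98-fold, adjusted p = 0.0106). Upp2 and Gpcpd1 also passed in the fit of the 6 control-diet arrays (adjusted p = 0.0342 and 0.0295). Csrp3, a LIM protein best known from muscle, rose by 1.00 ± 0.18, while 0 of 12 muscle markers were called and their mean levels were 5.22 to 5.66 in wild type and 4.97 to 5.30 in POR-null. The linker histone H1f2 (1.05 ± 0.23), the DNA repair nuclease Dclre1a (1.08 ± 0.24), Tceal8 (1.11 ± 0.19), the Kelch protein Klhl5 (1.01 ± 0.23) and the anchoring filament protein Lad1 (0.92 ± 0.17) completed the group. The second probe set of Dclre1a differed by 0.03, and the mean over both by 0.55 (adjusted p = 0.0912). All 9 genes were lost without wild-type pool 2. Neat1, Csrp3 and Lad1 were lost also without POR-null pools 1 and 2, Tceal8 without wild-type pool 3 and POR-null pool 1, and Klhl5, H1f2, Dclre1a and Upp2 without wild-type pool 3 and POR-null pools 1 and 2. H1f2 was lost also without POR-null pool 3, and Dclre1a and Upp2 also without wild-type pool 1, so that the largest adjusted p lay between 0.0577 and 0.231.

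Among the remaining decreases, Tmem141 stood at 7.60, 7.26 and 7.41 against 6.46, 6.59 and 6.84 (-0.79 ± 0.13, adjusted p = 0.0151). Sertad2, a transcriptional coregulator, stood at 8.036, 8.162 and 8.023 against 7.498, 7.490 and 7.486 (-0.58 ± 0.09, adjusted p = 0.0111), with hardly any spread in either group. Spast, a microtubule-severing ATPase (-0.69 ± 0.13), Wdfy2, an endosomal protein (-0.63 ± 0.11), and Ccdc117 (-0.73 ± 0.14) fell likewise. So did the dopamine receptor Drd4 (-0.59 ± 0.11), Fgd6 (-0.57 ± 0.11) and the Hes-family factor Hes6 (-0.57 ± 0.12). As means over both of their probe sets these differences were smaller for Spast (-0.25, its second probe set at 0.19), Ccdc117 (-0.42), Sertad2 (-0.38), Drd4 (-0.35) and Hes6 (-0.47), and their calls were lost, at adjusted p from 0.0538 to 0.282. Klkb1, plasma prekallikrein, was the called gene of 42 in complement and coagulation, from 9.18, 9.34 and 9.28 to 8.73, 8.68 and 8.94 (-0.49 ± 0.10, adjusted p = 0.0379). Chosen after their values were seen, the abundant secreted ribonuclease Rnase4 (-0.46 ± 0.09) and the membrane serine protease hepsin, Hpn (-0.42 ± 0.09), fell too. Psmd8 of the proteasome lid rose (0.45 ± 0.09, adjusted p = 0.0282) in a list in which 29 of 36 genes stood at or below 0 and 1 was called. All of these genes were lost without 1 or more of wild-type pools 2 and 3 and POR-null pools 1 and 2, at a largest adjusted p between 0.0558 and 0.23.

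Of the 38 lists 15 held no called gene. The acute phase list (30 measured, median 0.09) held the largest difference without a call. Lcn2, lipocalin-2, stood at 6.44, 5.80 and 6.14 in wild type and 7.69, 7.74 and 8.75 in POR-null (difference 1.93, adjusted p = 0.0842), and the orosomucoids Orm2 and Orm3 differed by 1.65 and 0.97 (adjusted p = 0.121 and 0.0718). Lcn2 passed in the fit of the 6 control-diet arrays alone (adjusted p = 0.0295). With quercetin 3 of the 30 were called higher, among them Lcn2 (3.04, adjusted p = 0.0082) and Orm3 (1.38, adjusted p = 0.00942). In the clock list 0 of 21 genes lay above 0, against 5706 of 12393 over all genes, and 0 were called, with a median of -0.33. That median was -0.19 without wild-type pool 2, -0.21 without POR-null pool 1 and -0.20 as means over probe sets. On the quercetin diet 9 of the 21 lay above 0, with a median of -0.11. Relative to all 6 arrays its median was 0.23 and 0.17 in wild-type pools 2 and 3 and -0.01 in wild-type pool 1, against -0.22, -0.01 and -0.10 in the POR-null pools. Thus wild-type pool 1 lay level with POR-null pool 2. Interferon and MHC genes (31 of 41 above 0, median 0.18), heat shock genes (7 of 24, median -0.09), heme genes (9 of 20, median -0.02) and retinoid genes (11 of 27, median -0.07) held no call either, against a median of -0.02 over all genes. The same held for 41 cell cycle, 42 cytoskeleton, 37 ribosomal protein and 32 carboxylesterase and dehydrogenase genes. A missed threshold does not show that these genes were equal.

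**Figure D4:**
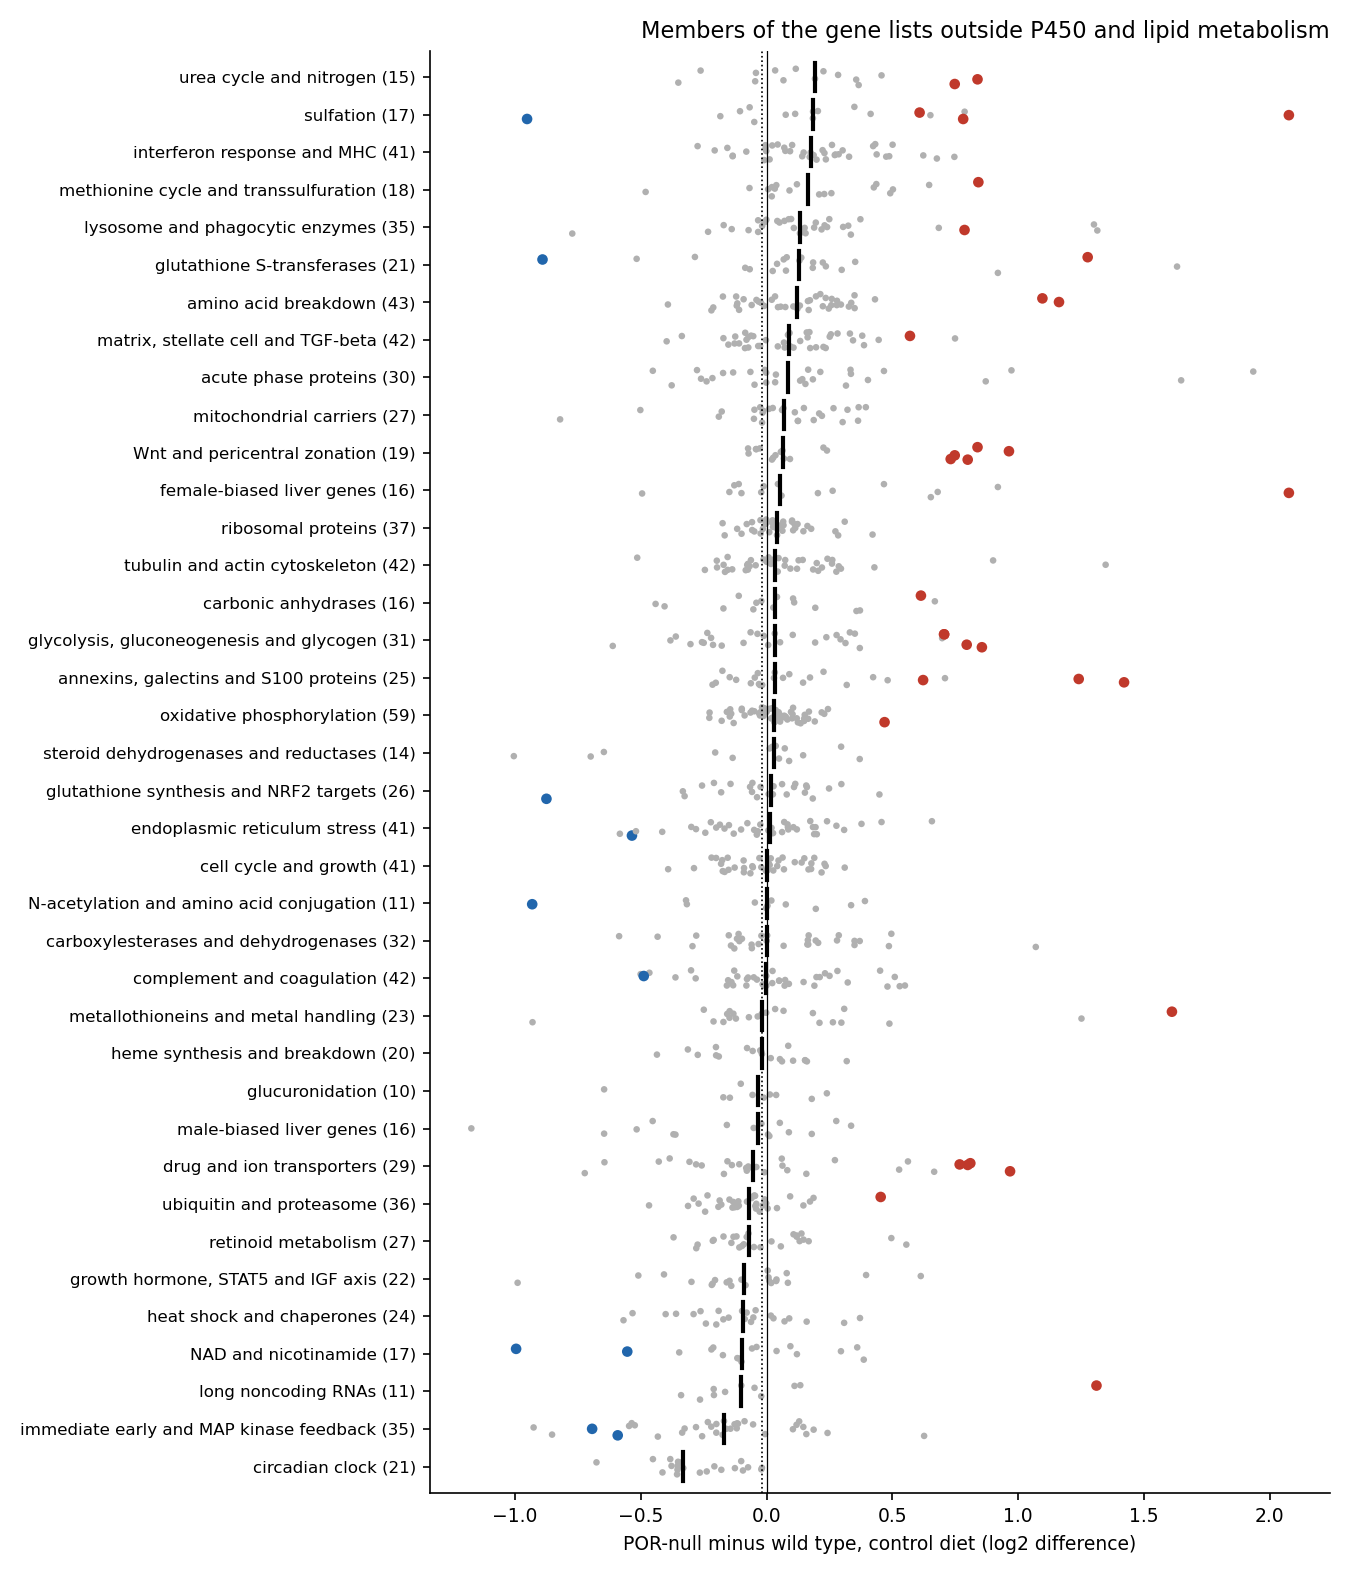
Log2 difference between POR-null and wild-type liver on the control diet (horizontal axis) for each measured member of 38 gene lists (rows, with the number measured), ordered by the list's median (black bar). Called members are red (higher) and blue (lower), others grey, and the dotted line marks the median of all genes (-0.02); most lists centre near 0 with 1 to 5 called members, and the clock list (median -0.33) has none.

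Other probe sets of the called genes were read as a check within the chip. The 92 higher genes had 73 further probe sets, of which 60 lay higher in POR-null and 12 were called. The 40 lower genes had 22, of which 20 lay lower and 2 were called. Zwint rose by its brightest probe set (0.52 ± 0.10), while all 5 others lay below 0, so that its mean over probe sets was -0.08 and its direction is uncertain. Its call was lost without wild-type pool 2 or 3 or POR-null pool 1 or 2 (adjusted p of up to 0.156). Averaging the probe sets of each gene left 49 of the 92 and 24 of the 40 called.

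The arrays of quercetin-fed mice allowed the genotypes to be compared in other pools. There 231 genes were higher (1.86%) and 78 lower (0.629%), and 12.2% and 13.5% of all genes had arrays that did not overlap upward and downward. Of the 92 genes higher on the control diet all 92 lay higher there too, 82 without overlap of arrays, and 55 were called. Of the 40 lower genes 38 lay lower, 27 without overlap, and 9 were called. Over all genes 63.8% had the same sign on both diets. The median of the 92 was 0.73 on the control diet and 0.62 on the quercetin diet. The median of the 40 was -0.58 and -0.29. Both comparisons share the estimate of the spread but no array.

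Sult1e1, called on both diets, stood at 4.76, 4.42 and 4.47 in wild type and 8.34, 7.09 and 8.10 in POR-null with quercetin (3.29, adjusted p = 0.000496). Lgals1 (1.86), Lhpp (1.25), Rhbg (1.34), Tgfbr2 (1.34), S100a10 (1.03) and Oat (0.62) were also among the 55 increases called there, at adjusted p from 0.00134 to 0.00552. Among the decreases Gclc (-0.89, adjusted p = 0.0167), Tmem141 (-0.86), Spast (-0.61), Ier2 (-0.59), Herpud1 (-0.56), Rnase4 (-0.50), Wdfy2 (-0.48), Ing2 (-0.46) and Klkb1 (-0.42) were the 9 called. Some genes called on the control diet were not called there. Maff stood at 5.90, 5.89 and 5.86 in wild type and 5.95, 5.91 and 5.90 in POR-null with quercetin, a difference of 0.03, and Nampt differed by 0.05. Sult2b1 differed by -0.06 there and Nmnat1 by -0.35 (adjusted p = 0.392). Gsta4 stood at 8.62, 8.92 and 8.62 against 8.41, 8.27 and 8.52 (-0.32, adjusted p = 0.162), with wild-type arrays below those of the control diet. Got1 went the same way as before, by 0.71 (adjusted p = 0.0527), with wild type at 11.06 to 11.30.

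**Figure D5:**
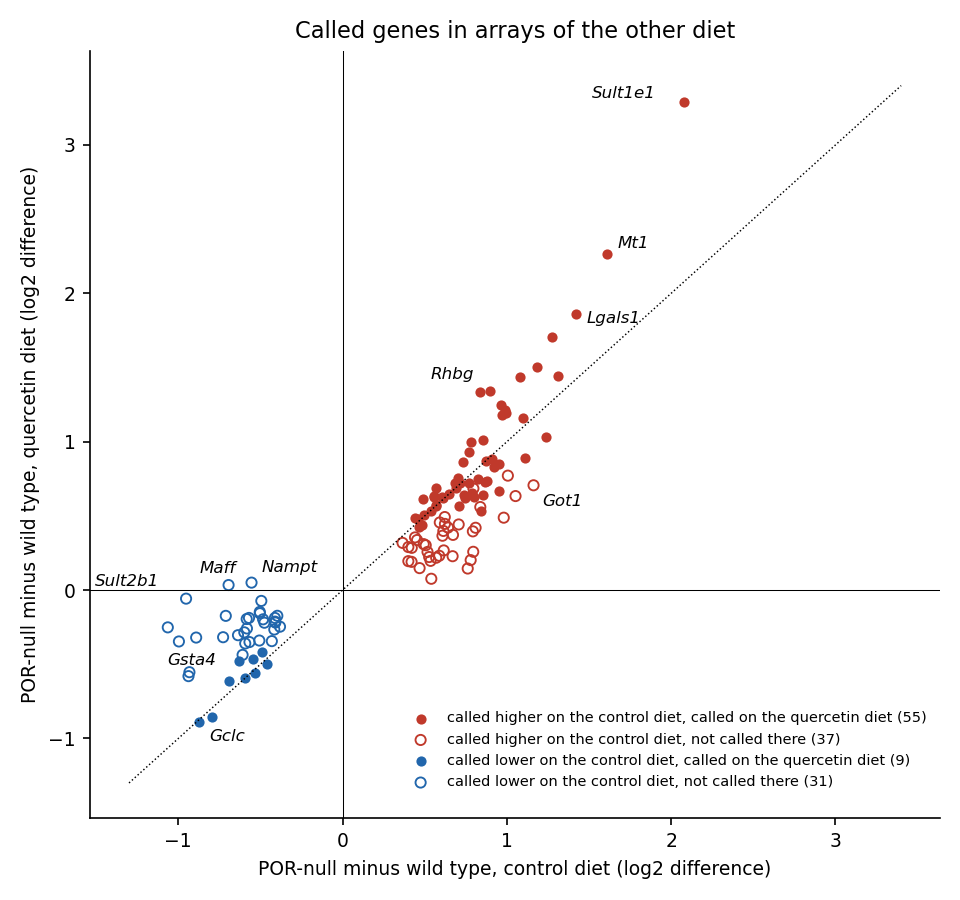
Log2 difference between POR-null and wild-type liver on the quercetin diet (vertical axis) against that on the control diet (horizontal axis) for the 132 genes called on the control diet outside the P450 and lipid lists; filled points were called on both diets (55 higher, 9 lower), and the dotted line marks equal differences. All 92 red points lie above 0 on the vertical axis, while the blue points lie mostly closer to 0 than on the control diet, with medians of -0.29 and -0.58.

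Whether the genotype difference itself differed between the diets was tested as an interaction. By limma 0 of the 22626 probe sets were called (adjusted p of 0.254 or more), and 1397 reached an unadjusted p under 0.05. A difference in calls between the diets, as for Maff or Nampt, is therefore not shown to be a difference in response. Without wild-type pool 1, 1 probe set passed.

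Genes close to Por were examined because a disrupted locus carries flanking sequence of its own. Of the 20 and 50 measured genes nearest to Por in RefSeq gene order, 10 and 25 on each side, 0 were called, against 1.24% of all 12373 genes placed on a chromosome. Of the nearest 100, 1 was called, Cyp3a13, which belongs to the P450 list. Arrays that did not overlap were found for 15%, 22% and 25% of these genes, against 17.8% of all placed genes. Elsewhere, 24 of the 154 called genes (15.6%) had another called gene within 5 measured neighbours, against 11.5% of all placed genes, a difference that was not tested. Gclc and Gsta4, which both fell, are such a pair, with the P450 and lipid list gene Elovl5 (1.16) beside them, and so are Lhpp and Oat, which both rose, and Gdap10 and Nampt, which both fell.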

How the data were processed

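Values were the series' table of log2 expression levels as deposited by the authors for Affymetrix 430A arrays. MAS5 and RMA are named in the submitters' processing notes, and which of them made these values is not given in the sources used here. The table held 22690 probe sets; 64 controls were left out and 22626 tested. Of the tested probe sets 20380 carried 1 gene symbol, 691 several and 1555 none; 20351 matched the GRCm38.p6 RefSeq gene table by gene identifier and 29 kept the platform's name. Groups came from sample titles. limma 3.58.1 in R 4.3.3 was fitted to all 12 arrays with 1 mean per group (8 residual degrees of freedom), an intensity trend and two-sided Benjamini-Hochberg adjustment over all probe sets; p-values reflect variation among pools only, and the number of arrays limits precision. Errors are moderated SE. No normalization was added. The procedure was tested on simulated data. These had independent noise for each probe set and no shift shared by a whole array. They therefore cannot speak to the dependence of the calls on single pools.

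Each gene was read from its probe set with the highest mean. Genes named by rule were the 20 largest called increases and decreases with a higher group mean above the median of all values (5.96), and members of the lists; P450 genes (Cyp) and lipid lists were left out. Others are marked as chosen after their values were seen. The genes, lists and comparison were chosen with earlier results of these data known, so lists are described by counts and medians without a test. Alternatives were a filter on the 40% dimmest probe sets, quantile normalization, other variance priors, array weights, a replicate block, the 6 arrays alone, means over probe sets, and leaving out each array. Figures were drawn with matplotlib 3.10.9.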

Additional observations from a re-analysis of the deposited data

Results flagged for a closer look

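In 4 genes every POR-null array lay on one side of wild type on the control diet and on the other side with quercetin. The interaction, the difference with quercetin minus that on the control diet, was 0.711 for F11r (a tight junction adhesion molecule), 0.637 for Ola1 (an Obg-like ATPase), 0.548 for Cxadr (the coxsackievirus and adenovirus receptor) and -0.547 for Olfr16 (an olfactory receptor). In limma's test of the interaction none was called, at adjusted p from 0.601 to 0.729. F11r stood at 8.72, 8.53 and 8.40 in wild type and 8.37, 8.29 and 8.14 in POR-null on the control diet, and at 8.31, 8.22 and 8.18 against 8.60, 8.66 and 8.74 with quercetin. Over all genes 58 showed such opposite separation.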

How the results depend on the processing

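With all arrays limma called 262 probe sets (186 higher, 76 lower) and, outside the P450 and lipid lists, 92 genes higher and 40 lower. With the spread from the 6 control-diet arrays alone these came to 30 (26 and 4), 9 and 1. That fit differs both in the number of arrays and in the arrays that give the spread, and the part of each was not tested. As means over probe sets 60 genes were higher. Leaving out 1 control-diet array gave 35 to 756 probe sets (29 to 476 higher, 4 to 280 lower), 9 to 225 genes higher and 4 to 140 lower; the interaction gave 0 to 1. A filter on dim probe sets, quantile normalization, other priors and array weights kept each count within 1.5 times its main value, and so did the pool number as a replicate block (241 probe sets; 86 and 34 genes). Deviations of same-numbered pools correlated at 0.126, 0.084 and 0.041, so the numbers are not taken as pairs, although each array correlated best with its own number, a hint from the data. Of the 60 called genes named by rule 0 changed direction under any alternative. Genes named otherwise were not in this count, among them Zwint, which changed direction as a mean over probe sets. Of the 60 genes, those still called were 60 with the filter, 53 after quantile normalization, 47 without trend, 45 with the robust prior, 58 with weights, 54 with the block, 35 as means over probe sets, 7 with the 6 arrays alone, and 10 to 57 with an array left out.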
